A study of Mus musculus with 2 samples.

Results

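The Mir30 family was described in the left cerebral cortex of mice, from small RNA libraries that count reads per microRNA gene. Its members are the 7 genes named Mir30a, Mir30b, Mir30c-1, Mir30c-2, Mir30d, Mir30e and Mir30f in the GENCODE M21 annotation, taken by name and not by level, out of 2202 counted microRNA genes. The tissue came from female B6CASTF1/J mice aged 25 days, an F1 cross obtained from The Jackson Laboratory, and the labels give no treatment. There is 1 group with 2 biological replicates, whose labels number the animals separately while both cite a single donor record. The difference between these libraries may thus be partly technical. No condition was set against another, and the comparison that the design allows is between the libraries.

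MicroRNAs are cut from hairpin transcripts as short duplexes, and 1 arm of the duplex is loaded into an Argonaute protein, where the seed (bases 2 to 8 from the 5′ end) pairs with target messenger RNAs and lowers their output. Members of the miR-30 family share their seed on the 5p arm and are found in many tissues, brain included. In human cells miR-30a is known to repress BECN1, a gene of autophagy, and miR-30 has been linked to Notch signalling through the ligand gene DLL4. The counted value of a gene joins reads of either arm that were placed at its hairpin alone, so a level is that of a gene and not of a mature arm. Reads that match several loci are left out, which for Mir30c-1 and Mir30c-2 can take in the whole 5p arm.

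The mature sequences below show what the members share and where they part, with the seed in capitals. RefSeq sequences on build GRCm38.p6 were matched by symbol for 5 of the 7 members, which leaves out Mir30b and Mir30d. The mature 5p arms are listed first, with the mature sequence of Mir30f after them, 5′ to 3′.
miR-30a-5p: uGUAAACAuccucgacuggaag
miR-30e-5p: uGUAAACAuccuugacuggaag
miR-30c-5p (Mir30c-1 and Mir30c-2): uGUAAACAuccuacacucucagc
miR-30f: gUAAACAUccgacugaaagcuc

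The 3p arms fall into pairs that share a seed unlike that of the 5p arms, and are shown because they tell apart genes whose 5p arms are alike.
miR-30a-3p: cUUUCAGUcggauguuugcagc
miR-30e-3p: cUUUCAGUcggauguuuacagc
miR-30c-1-3p: cUGGGAGAggguuguuuacucc
miR-30c-2-3p: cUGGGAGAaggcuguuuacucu

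All 5p arms shown share the seed GUAAACA. Counting positions from 1 at the 5′ end, miR-30e-5p differs from miR-30a-5p by 1 base, C13U, and miR-30e-3p from miR-30a-3p by 1 base, G18A. The 5p arm of Mir30c-1 and Mir30c-2 is identical, and against miR-30a-5p it carries 5 changes, C13A, G14C, G18C, G19U and A20C. The 3p arms of the same genes differ at 3 positions, G9A, U12C and C22U with miR-30c-1-3p as the starting sequence. The annotated miR-30f begins 1 base later than the others, so GUAAACA lies at its positions 1 to 7 and its bases 2 to 8 read UAAACAU. Of 1738 mature arms in the RefSeq table, 5 (0.288%) had the seed GUAAACA, from 5 genes. That table covers 1058 genes and had no match for Mir30b and Mir30d, so their arms are not in this count. The seed UGGGAGA of the miR-30c 3p arms was also that of 1 counted gene outside the family, Mir6958.

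Among genes in the RefSeq table, the 1 counted gene outside the family with the seed GUAAACA was Mir384 on chromosome X. Its 5p arm is known in rodent hippocampus from studies of lasting synaptic potentiation. Beyond the seed it has little in common with miR-30.
miR-384-5p: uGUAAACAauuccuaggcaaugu
It first differs from miR-30a-5p at position 9, and at 10 of the 22 positions compared.

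The family held 1.68% (exact 95% interval 1.665 to 1.694) of microRNA gene counts in replicate 1 and 1.25% (1.238 to 1.262) in replicate 2, a mean of 1.46% ± 0.304 (SD, n = 2), while making up 0.318% of the counted genes. Own-strand counts of microRNA genes summed to 3017058 and 3209361 in the libraries, and reads placed at several loci, 40.3% and 39.0% of all reads, were outside the gene counts. Among markers of the tissue, neuronal genes such as Mir139, the highest gene of all at 148859 ± 9844 CPM (counts per 1000000 own-strand counts of the library; SD, n = 2), and Mir132 at 34178 ± 1376 CPM were abundant, while Mir9-3 averaged 71.1 CPM and the neuronal Mir124a-1 had 3 and 9 counts. The 5 genes of other tissues lay between 13.7 CPM for the epithelial Mir200c and 135 CPM for Mir375 of pancreas and pituitary, so that Mir375 stood above Mir9-3 and Mir124a-1. In bulk tissue a low level from few cells and a low level in many cells cannot be told apart. Reads placed at several loci are in none of these levels, so a low value here need not mean a scarce microRNA. How many such reads belong to Mir9-3 and Mir124a-1 was not tested.

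The members fell into 3 levels. Mir30d, Mir30a and Mir30e supplied 96.6% of the family's counts in replicate 1 and 95.9% in replicate 2. Mir30c-2, Mir30c-1 and Mir30b followed at between 114 and 269 CPM on average, and Mir30f had no own-strand count. With a minimum of 10 counts in both libraries, 6 of 7 members were detected, against 17.9% of all counted genes. That background includes 1460 genes, many with provisional names, that had 0 counts in both libraries.

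**Figure D1:**
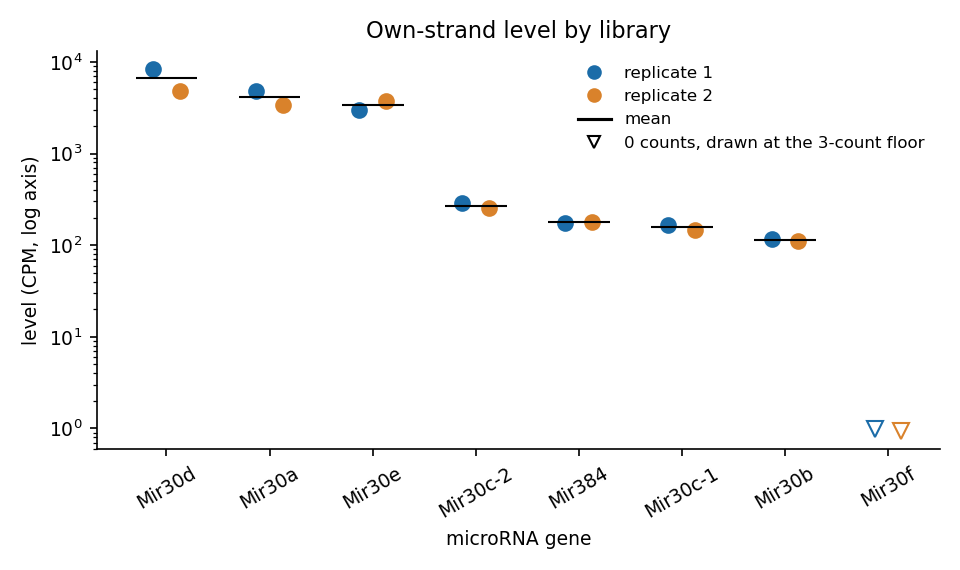
Level of each Mir30 gene and of the seed mate Mir384 in each library, in CPM on a log axis, with the mean as a bar. Mir30d, Mir30a and Mir30e lie at 2965 CPM or more in both libraries, the other detected genes at 287 CPM or less, and Mir30f, with 0 counts, is drawn at the level that 3 counts would give.

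Mir30d was the highest member, with 25334 counts in replicate 1 and 15594 in replicate 2, or 8397 and 4859 CPM (6628 ± 2502 CPM, SD, n = 2). It led the family in both libraries, and replicate 1 was clearly the higher. It ranked 27th and 36th among the 2202 genes. Mir30d (ENSMUSG00000065437.1) is on chromosome 15, minus strand, from 68341208 to 68341289 (mm10), wholly within an exon of the long noncoding RNA gene Gm20732, and 9 nt of it also overlap an exon of Gm37296, a gene of type TEC. Its nearest neighbours in level outside the family were Mir126a, the endothelial microRNA of Egfl7, at 7275 ± 2207 CPM and Mir22 at 6034 ± 5128 CPM. Neither mean stood further from that of Mir30d than its own SD, which follows largely from picking the nearest genes.

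Mir30a had 14665 counts in replicate 1 and 10907 in replicate 2, or 4861 and 3399 CPM (4130 ± 1034 CPM). The gene (ENSMUSG00000065405.3), on chromosome 1, plus strand, from 23272269 to 23272339, overlaps no other annotated gene. Mir30e had 8946 counts in replicate 1 and 11983 in replicate 2, or 2965 and 3734 CPM (3349 ± 544 CPM). Unlike Mir30d and Mir30a it was higher in replicate 2, so that Mir30a stood above Mir30e in replicate 1 and below it in replicate 2. The order of these neighbours is therefore not fixed by the CPM of these libraries. Mir30e (ENSMUSG00000065409.1) is on chromosome 4, minus strand, from 120772606 to 120772697, within an intron of Nfyc, which encodes a subunit of the CCAAT-binding factor NF-Y.

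Hairpins of the family are between 71 and 96 nt long. Per nt of hairpin, Mir30d had 102 and 59.3 CPM, Mir30a 68.5 and 47.9 CPM and Mir30e 32.2 and 40.6 CPM in replicates 1 and 2, so Mir30a stood above Mir30e in both libraries on that scale. The order of the mean levels was otherwise the same on both scales.

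The make-up of the family differed between libraries mainly in Mir30d and Mir30e. Mir30d held 49.998% (exact 95% interval 49.56 to 50.43) of family counts in replicate 1 and 38.9% (38.39 to 39.35) in replicate 2. Mir30e held 17.7% (17.32 to 17.99) in replicate 1 and 29.9% (29.42 to 30.32) in replicate 2. Mir30a held a steadier share, 28.9% in replicate 1 and 27.2% in replicate 2. Shares within a family are bound to each other, so a lower share of 1 member raises those of the rest. In the scaled ratios given further on, Mir30e differed least of these genes (1.07-fold), against 1.68-fold for Mir30a and 2.02-fold for Mir30d. The intervals cover counting error alone and treat each read as a separate molecule, though some reads may be copies made during PCR.

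**Figure D2:**
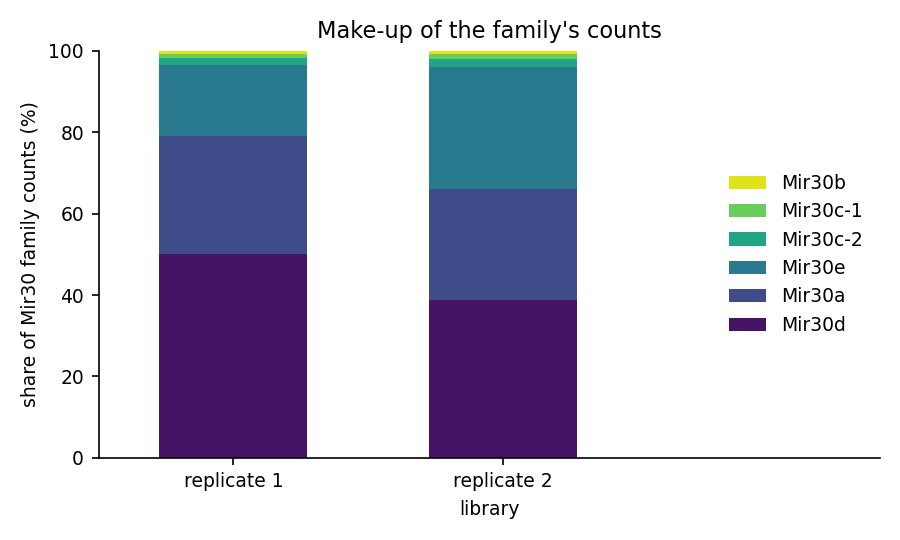
Share of Mir30 family counts supplied by each member, in percent, as stacked bars for replicate 1 and replicate 2. Mir30d is the largest block in both, and the block of Mir30e is 17.7% in replicate 1 and 29.9% in replicate 2.

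The lower members kept the same order in both libraries. Mir30c-2 had 865 and 808 counts in replicates 1 and 2 (269 ± 24.7 CPM), Mir30c-1 had 506 and 472 counts (157 ± 14.6 CPM) and Mir30b had 354 counts in each library (114 ± 4.97 CPM). Their means lay more than 1 SD apart. The miR-30c sequence is known to repress Mttp, a gene of lipoprotein assembly, in mouse liver. Mir30c-2 (ENSMUSG00000065567.1), on chromosome 1, plus strand, from 23291701 to 23291784, lies wholly within an exon of the noncoding gene Gm27028. Mir30c-1 (ENSMUSG00000065490.1), on chromosome 4, minus strand, from 120769534 to 120769622, lies in an intron of Nfyc. Mir30b (ENSMUSG00000065476.2), on chromosome 15, minus strand, from 68337415 to 68337510, shares 16 nt with an exon of the processed transcript Gm26621. The nearest genes in level outside the family were Mir125b-2 (270 CPM) above Mir30c-2 and Mir873a (266 CPM) below it, Mir193b (161 CPM) above Mir30c-1 and Mirlet7f-1 (156 CPM) below it, and Mir7-2 (118 CPM) above Mir30b and Mir27a (107 CPM) below it. For Mir30a they were Mir379 (4395 CPM) and Mir298 (3863 CPM), and for Mir30e Mir335 (3393 CPM) and Mir107 (3301 CPM). Each of these neighbours had a mean within its own SD of that of the member beside it. They were picked as nearest in mean, so this closeness follows largely from the choice. The seed mate Mir384 (ENSMUSG00000065499.1), on chromosome X, minus strand, from 105344282 to 105344369, had 530 and 578 counts (178 ± 3.13 CPM) and stood between Mir30c-2 and Mir30c-1.

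The shared 5p arm bears on the counts of Mir30c-1 and Mir30c-2. Their hairpins have 28 nt in common, the 23 bases of miR-30c-5p, in capitals, and the 5 bases after it.
Mir30c-1 and Mir30c-2: UGUAAACAUCCUACACUCUCAGCuguga
A read that lies within this stretch matches both genes equally, and per the layout of the files reads placed at several loci are counted apart from genes. The summed level of Mir30c-1 and Mir30c-2 was 427 ± 39.3 CPM, and how many miR-30c-5p reads lie outside it was not tested. These were the 2 members that share at least 20 nt with the hairpin of another counted gene.

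At 18 nt the overlap widened to 6 of 7 members. Mir30a and Mir30e have 18 nt in common around the 3p arm, of which 17, in capitals, belong to miR-30a-3p.
Mir30a and Mir30e: gCUUUCAGUCGGAUGUUU
Mir30b shares 18 nt with both Mir30c genes. Mir30d, the highest member, had the shortest longest match, 16 nt with the Mir30e locus. Mir384 shares at most 12 nt with any other counted hairpin. Mature arms are 22 or 23 nt long, so a full-length read of Mir30a or Mir30e spans a base by which they differ, while a shortened read need not. Mir30c-1 and Mir30c-2, with an exact copy of their 5p arm, were low, and Mir30b, with no stretch of 20 nt elsewhere, was lower still. The part of copies in these levels was not tested.

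**Figure D3:**
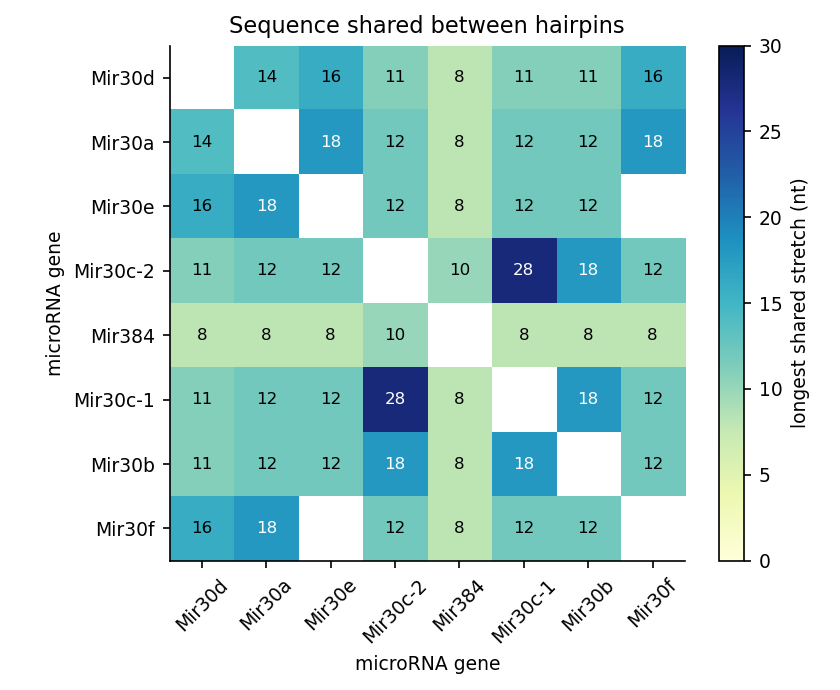
Longest stretch of identical sequence, in nt and on either strand, between the annotated hairpins of Mir30 genes and Mir384, ordered by mean level. The pair of Mir30c genes shares 28 nt, pairs of Mir30a, Mir30b, Mir30e and others reach 18 nt, and blank cells are a gene with itself or Mir30e with Mir30f, which occupy the same place.

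The 6 detected members lie as 3 pairs of neighbours, and in each pair the upstream gene on their strand was the higher. On chromosome 15, Mir30d had 71.6 times the counts of Mir30b in replicate 1 and 44.1 times in replicate 2, with 3697 nt between the hairpins. On chromosome 4, Mir30e had 17.7 and 25.4 times the counts of Mir30c-1, 2983 nt downstream in Nfyc. On chromosome 1, Mir30a had 16.95 and 13.5 times the counts of Mir30c-2, 19361 nt downstream. Within each pair the ratio changed between libraries. Its mean was 57.8 ± 19.5 times on chromosome 15, 21.5 ± 5.45 times on chromosome 4 and 15.2 ± 2.44 times on chromosome 1 (SD, n = 2). The lower genes on chromosomes 4 and 1, Mir30c-1 and Mir30c-2, have an identical 5p arm, and reads placed at several loci are counted apart from genes. The part of such reads in the ratios was not tested. Whether neighbours come from 1 transcript was not measured here.

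**Figure D4:**
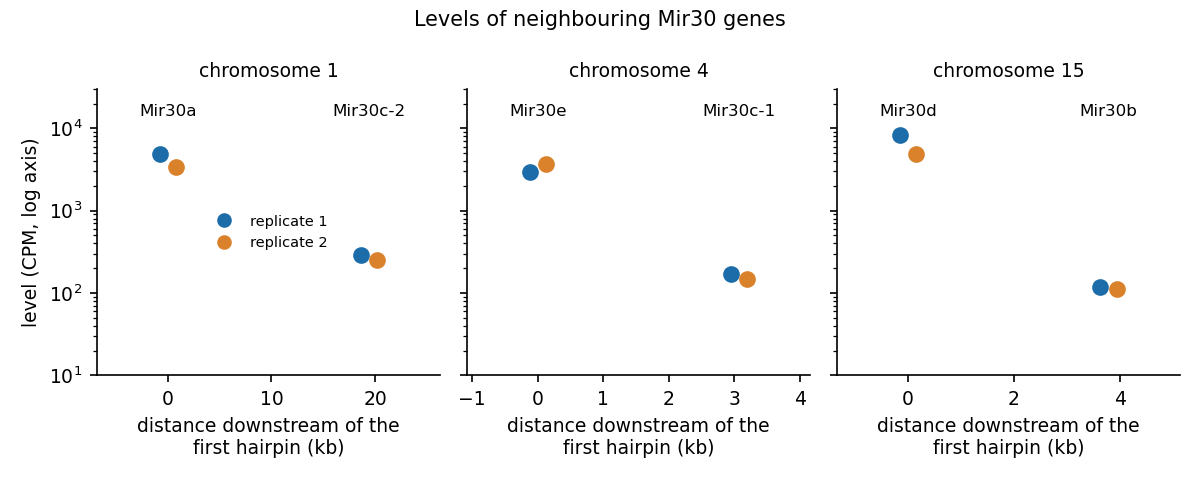
Level in CPM, on a log axis, of the 3 pairs of neighbouring Mir30 genes against distance in kb along their strand from the first hairpin, with points of the libraries set slightly side by side. In each pair the first gene lies between 2965 and 8397 CPM and the second between 110 and 287 CPM. Reads placed at several loci are not included.

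Mir30f is annotated on the opposite strand of Mir30e with identical ends (ENSMUSG00000105585.1, plus strand of chromosome 4, 120772606 to 120772697). It had 0 own-strand counts in both libraries, which allows up to 3 counts, or 0.994 CPM for replicate 1 and 0.935 CPM for replicate 2. The sequence of miR-30f overlaps miR-30e-3p by 19 nt on the other strand. The reads of this locus, 8946 and 11983, were all on the minus strand, that of Mir30e. Where strand is ignored they can be given to neither gene, and in the deposited either-strand column both genes had 0 counts. There the reads of Mir30e made up 4.50% and 5.56% of the reads classed as ambiguous in replicates 1 and 2. Among all counted genes, 32 pairs overlap on opposite strands, and 3 of them have the same ends.

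Between the libraries, Mir30d and Mir30a were higher in replicate 1 by more than counting error and Mir30e was slightly lower. Each log2 ratio sets replicate 1 over replicate 2 with TMM-scaled library sizes, a scaling that moves the ratios by 0.23 relative to library totals. Mir30d had a ratio of 1.02 (95% counting interval 0.99 to 1.05), a 2.02-fold difference. Mir30a had a ratio of 0.74 (0.71 to 0.78) and Mir30e of -0.10 (-0.14 to -0.064). The lower members had ratios of 0.42 (0.28 to 0.56) for Mir30c-2, 0.42 (0.23 to 0.60) for Mir30c-1 and 0.32 (0.10 to 0.53) for Mir30b. Mir30c-1 and Mir30c-2, on different chromosomes, gave nearly equal ratios, while in each of the 3 neighbouring pairs the counting intervals of the neighbours did not overlap. Mir384 had a ratio of 0.19 (0.020 to 0.37).

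Markers of cell types also differed between these libraries. The oligodendrocyte genes Mir338 and Mir219a-2 summed to 3660.5 CPM in replicate 1 and 5620.7 CPM in replicate 2, and the endothelial Mir126a had 5714 and 8835 CPM. The 2 astrocyte genes, Mir23b and Mir29a, summed to 29589.8 and 25386.4 CPM, and the 6 neuronal genes to 205652.7 and 192143.5 CPM, with 2 of the 6 higher in replicate 2. Most of the neuronal sum was Mir139, at 155820 and 141898 CPM. The 5 genes of other tissues summed to 213.8 and 306.6 CPM, with 4 of the 5 higher in replicate 2. These CPM values use library totals and not the TMM-scaled sizes of the ratios above, so the direction of a small difference can depend on the scale. None of the 16 marker genes was at 0 in either library. Their part in the ratios of the Mir30 genes was not tested.

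The two-sided exact binomial test, whose p-values weigh a difference against counting error alone and not against the spread between animals, with Benjamini-Hochberg adjustment over 496 genes, called all 6 members with counts, 5 higher in replicate 1 and 1 higher in replicate 2. The background was 56.5% of the tested genes called, 30.6% higher in replicate 1 and 25.8% higher in replicate 2, and among the 231 genes averaging 50 CPM or more, as all 6 members do, it was 88.3%. The count of calls is thus close to that of other genes at such depth. Calls by direction were not counted among these 231 genes, whose median ratio (0.15) also lay towards replicate 1. The adjusted p was 0.00734 for Mir30b, 1.73e-05 for Mir30c-1, 1.18e-08 for Mir30c-2 and 7.10e-07 for Mir30e, and smaller still for Mir30a and Mir30d. The median log2 ratio was 0.42 over the members, against -0.0058 over all tested genes and 0.15 over the genes of at least 50 CPM. With library totals in place of TMM, Mir30b (log2 ratio 0.089, adjusted p = 0.534 by the exact binomial test) and Mir30c-1 (0.19, adjusted p = 0.0676) were no longer called.

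The members were then set beside the spread of other genes. Of the 231 genes with at least 50 CPM, 31 (13.4%) were as far apart in either direction as Mir30d or further, 53 (22.9%) as Mir30a and 209 (90.5%) as Mir30e, each count including the gene itself. In the direction of replicate 1, 13 genes (5.63%) reached the ratio of Mir30d and 21 (9.09%) that of Mir30a. The median absolute log2 ratio was 0.42 both over the members and over these genes. With the common dispersion of all genes (a biological coefficient of variation of 36.7%), edgeR's exact test called 0 members and 0 of 496 genes, while 33 genes had an unadjusted p under 0.05, none of them a member (lowest member p = 0.186, Mir30d). That dispersion was estimated from the same 2 libraries with no group term, so it already holds the differences under test. The 0 calls therefore cannot decide whether a member differs between the libraries.

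**Figure D5:**
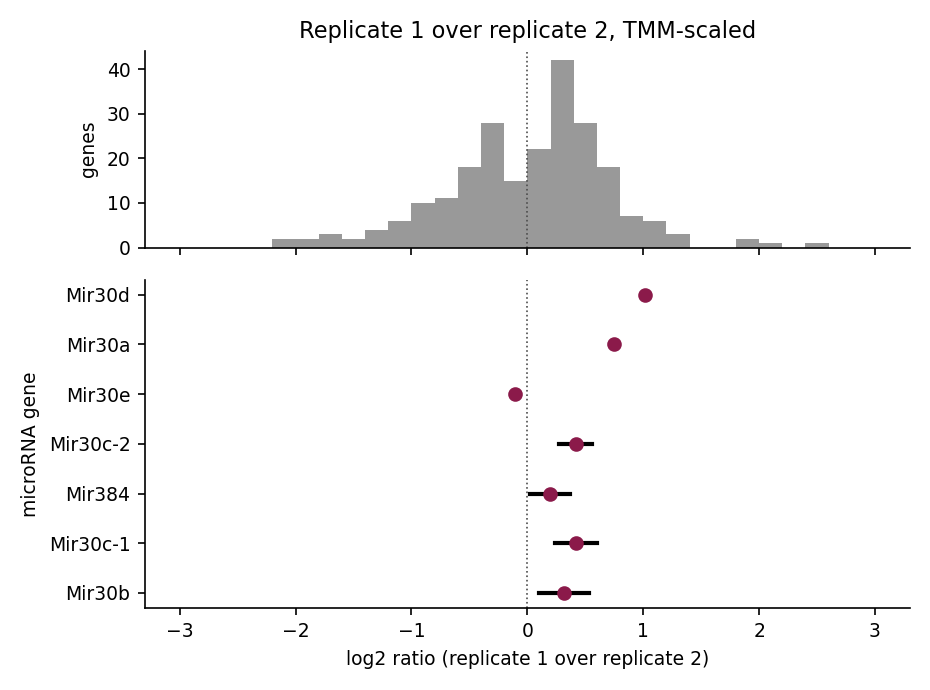
TMM-scaled log2 ratio, replicate 1 over replicate 2, for 231 genes averaging 50 CPM or more (histogram, upper panel) and for Mir30 genes and Mir384 with 95% counting intervals (lower panel). The members lie between -0.10 and 1.02, with Mir30d in the upper tail of the histogram, where 13 of the 231 genes, itself included, reach its ratio.

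Beside other families with several loci, Mir30 held the largest share of counts of the 4 compared. The rank holds among these 4 alone, as Mir23b by itself averaged 22192 CPM, more than the whole Mir30 family. The Mir181 genes held 0.771% ± 0.0153, the Mir29 genes 0.592% ± 0.0246 and the Mir26 genes 0.495% ± 0.127 (SD, n = 2). The counting interval of Mir30 lay above that of each other family in both libraries, and the difference was not tested beyond that. Its share varied more than that of Mir181 and Mir29, and the Mir26 share was likewise higher in replicate 1 (0.585%) than in replicate 2 (0.406%). The highest gene held 45.2% of the mean level of Mir30, against 41.5% for Mir181b-2 in Mir181, 89.5% for Mir29a in Mir29 and 98.7% for Mir26b in Mir26. Of the genes, 2 of 7 in Mir30, 4 of 6 in Mir181, 3 of 4 in Mir29 and 2 of 3 in Mir26 share at least 20 nt with another hairpin. Reads placed at several loci are in none of these shares, so the order of the families holds for counted reads only. The part of copies in that order was not tested.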

How the data were processed

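Small RNAs of below 30 nt were sequenced from 2 libraries of left cerebral cortex. Read counts per microRNA gene were deposited without normalization, on build mm10 with annotation M21, per the deposited descriptions. Aligner and counter: not given in the sources used here. No header line names the columns. The column with most stranded counts (93.8% and 93.7%) was taken as the own strand and used throughout, and the 4 classes of reads that name no gene were left out. Those were 64.5% and 65.5% of reads together, and the counted share was 35.5% and 34.5%. CPM values use the own-strand total.

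Libraries were compared by a two-sided exact binomial test on TMM-scaled sizes (edgeR 4.0.16, R 4.3.3) over genes with 10 or more counts summed over both libraries, with an adjusted p under 0.05 called. The test was checked on simulated data that held counting error alone, as the test assumes. That check therefore does not bear on the spread between animals. Names, hosts and hairpins came from M21, mature sequences from RefSeq (GRCm38.p6), and shared stretches were sought on both strands among counted hairpins at other places. Named genes were the members, seed mates, neighbours in level, the highest gene and the highest gene of each compared family, with tissue markers. Members and lists were chosen with earlier results of these data known. Alternatives were the either-strand column, all reads as denominator, other minimums, DESeq2 1.42.0 size factors, library totals, equal depth, edgeR's exact test, other stretch lengths and leaving out each replicate. Python 3.11.15, scipy 1.17.1 and matplotlib 3.10.9 were used.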

Additional observations from a re-analysis of the deposited data

Results flagged for a closer look

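The opposite-strand column, which no level above uses, held 8946 counts for Mir30f in replicate 1 and 11983 in replicate 2, above what a count of 0 allows. These equal the own-strand counts of Mir30e at the same place. The other members had 0 opposite-strand counts in both libraries. With 2 libraries, no group was large enough to look for a sample far from the rest.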

How the results depend on the processing

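With all reads as the denominator, the family held 0.514% in place of 1.46%, as 35.5% and 34.5% of reads were counted on genes. Without each replicate in turn the share ran from 1.25% to 1.68%, and detected members stayed at 6. edgeR's exact test called 0 members in place of 6, since its dispersion adds the spread between the libraries to counting error. That spread holds the very differences under test, so the 0 calls decide nothing. Shared stretches of 18 nt took in 6 members in place of 2. In the either-strand column 5 members were detected and called, the share was 1.21% and Mir30e had 0 counts. All 6 members were called with DESeq2 size factors, with other minimums and at equal depth, and 4 with library totals. No log2 ratio changed sign in 35 recomputed values, and 2 lost their call, both with library totals. Mir30e ranged from -0.33 to -0.10. No paired analysis was possible because there is 1 group. The genome was not searched for copies of the mature arms. Depth limits Mir30f to the stated bounds.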
